A study of Mus musculus with 12 samples.

Results

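The genes described here are 10 immediate early genes of the AP-1 and EGR circuit, Fos, Fosb, Jun, Junb, Jund, Egr1, Egr2, Dusp1, Zfp36 and Btg2, followed over 12 Affymetrix gene arrays of mouse cells. Each gene was read from the probe set that carried only its symbol, and each of the 10 had 1 such probe set, so the set comprised 10 of 19938 genes tested. All cells descended from induced pluripotent stem cells (iPSCs), and each of 4 groups had 3 arrays. The first group held cells sorted at day 4 by flow cytometry for FLK1 and PDGFRα, a population enriched in cardiac progenitor cells (CPCs) and called sorted CPC below. The cardiac group held unsorted cells of an optimized cardiac differentiation at day 4. The spontaneous group held unsorted cells that had differentiated without that protocol, also at day 4. Undifferentiated iPSCs at day 0 were the control of the series. How the iPSCs were made, the mouse strain and how the cells were dissociated, sorted or held before lysis are not given in the sources used here. No label states whether replicates were grown as independent cultures. The p-values therefore rest on the variation among these arrays, part or all of which may be technical.

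Immediate early genes are transcribed within minutes of a growth factor, calcium or stress signal, from factors already present in the cell and without new protein synthesis. Serum response factor (SRF) with its ternary complex partners and the cAMP response element binding protein (CREB) switch them on when kinases such as ERK and p38 are active. The Fos and Jun proteins pair to form AP-1, the EGR proteins are zinc finger factors that bind GC-rich DNA, and Dusp1, Zfp36 and Btg2 encode products that dampen the response. In many tissues the enzymatic release and sorting of living cells is itself known to induce these genes. Mouse pluripotent cells kept in culture also receive growth factor signals through ERK.

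Sorting selects on the proteins of Kdr, which encodes FLK1, and Pdgfra, and the labels were first set against these transcripts. Kdr signals (log2) were 10.23, 6.25 and 6.03 on the sorted CPC arrays, 5.42, 10.81 and 9.01 on the cardiac arrays, 9.83, 10.71 and 10.27 on the spontaneous arrays, and 5.50, 5.54 and 5.78 at day 0. The libraries labelled sorted CPC replicates 2 and 3 and cardiac replicate 1 thus carried Kdr close to the day 0 level, against what the sort label implies for the sorted pair. Pdgfra was 11.13, 8.47 and 8.29 on the sorted CPC arrays and 8.75, 9.14 and 8.81 at day 0, so the same sorted pair also lay below the undifferentiated cells. The mean log2 signal of 10 pluripotent markers was 7.81, 9.89 and 9.26 on the sorted arrays, against 10.75 to 11 at day 0. Sorted CPC arrays were also the least alike, with a lowest pairwise correlation of 0.9656 over all genes, and the differences of sorted CPC from each other group are therefore also given without its replicates 2 and 3. In such bulk samples fewer cells of a type and less RNA per cell cannot be told apart.

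All values below are log2 RMA signals, so a difference of 1 is a doubling. A gene is said to have risen or fallen only where limma's adjusted p was under 0.05 and the difference at least 1 (log2). Signals are compared within a gene, never between genes. The plot of the 10 genes by array gives the whole data set for these members.

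**Figure D1:**
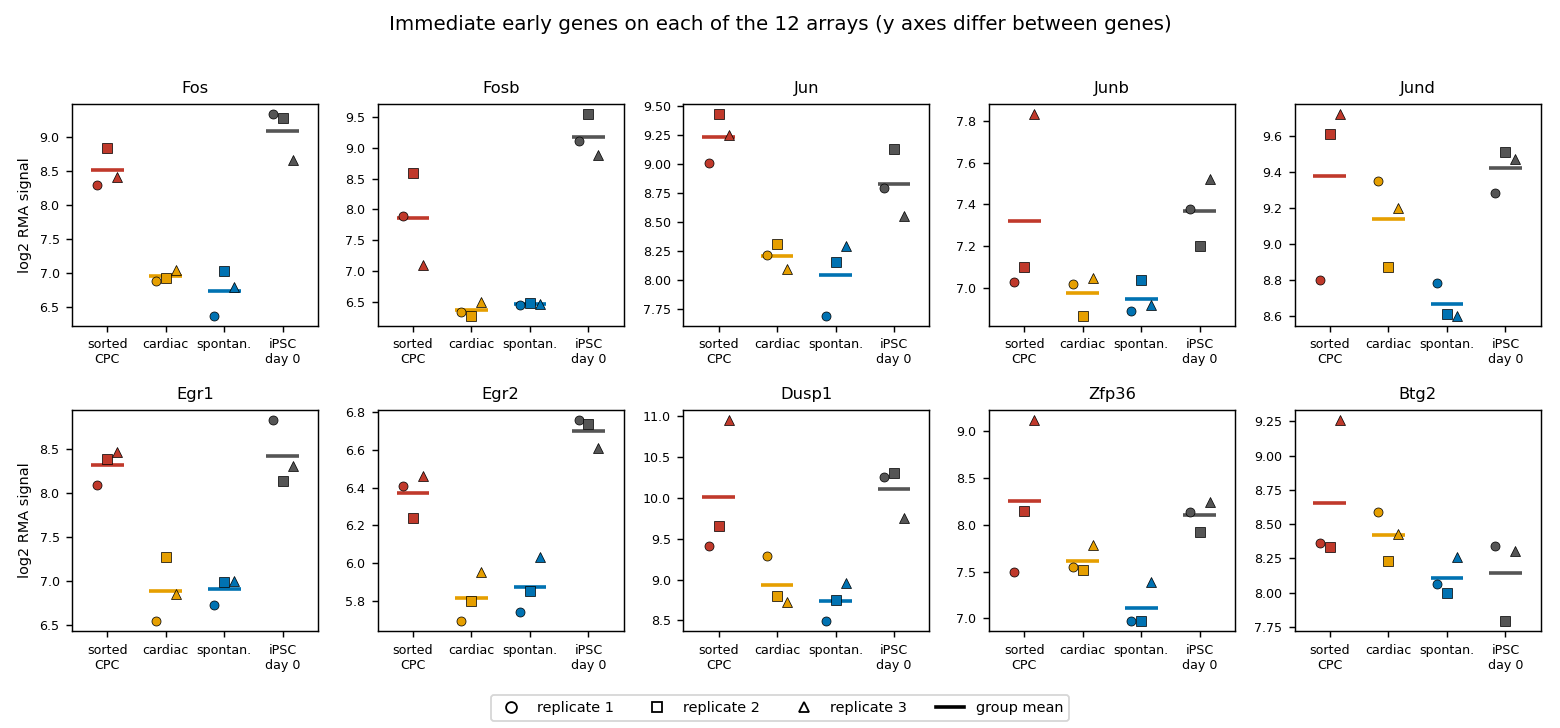
Log2 RMA signal (y axes, which differ) of each of the 10 immediate early genes on each array, by group (x axes); symbols mark the replicate and bars the group mean. Fos, Fosb, Jun, Egr1, Egr2 and Dusp1 had all 3 sorted CPC arrays above all 6 unsorted day 4 arrays.

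Fos and Fosb, which encode the AP-1 partners of the Jun proteins, had the widest spread between groups. Fos signals were 8.30, 8.84 and 8.41 on the sorted CPC arrays, 6.88, 6.93 and 7.05 on the cardiac arrays, 6.37, 7.03 and 6.80 on the spontaneous arrays, and 9.34, 9.28 and 8.67 at day 0. Its lowest sorted array thus exceeded its highest unsorted day 4 array, while sorted replicate 2 overlapped the day 0 range. Fosb signals were 7.90, 8.59 and 7.10 on the sorted CPC arrays, 6.33, 6.27 and 6.50 on the cardiac arrays, 6.45, 6.48 and 6.46 on the spontaneous arrays, and 9.11, 9.55 and 8.88 at day 0. Here the sorted arrays formed an intermediate step that overlapped neither the unsorted day 4 arrays nor day 0.

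The proximal promoters of both genes are shown because they hold the kind of site through which such genes are known to be switched on. Each window is 250 bases long, ends at the base before a RefSeq transcription start (GRCm38.p6), and is written 5′ to 3′ on the gene's strand. Capitals mark matches, on either strand, to TGACG, the core of a cAMP response element (CRE), to its full form TGACGTCA, which contains that core, or to GCGGGGGCG, an EGR binding sequence. The Fos window is chr12:85473640-85473889 on the plus strand and the Fosb window is chr7:19310046-19310295 on the minus strand.
Fos: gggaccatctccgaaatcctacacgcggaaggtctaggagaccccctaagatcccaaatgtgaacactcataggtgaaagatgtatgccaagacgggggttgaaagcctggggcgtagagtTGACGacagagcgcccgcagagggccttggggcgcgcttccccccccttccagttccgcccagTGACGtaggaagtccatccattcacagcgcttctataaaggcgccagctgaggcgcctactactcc
Fosb: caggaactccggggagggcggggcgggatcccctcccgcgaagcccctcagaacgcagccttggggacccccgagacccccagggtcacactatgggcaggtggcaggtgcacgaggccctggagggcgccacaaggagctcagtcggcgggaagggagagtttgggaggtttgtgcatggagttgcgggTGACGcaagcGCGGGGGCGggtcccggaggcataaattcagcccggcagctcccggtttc

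In the Fos window the CRE core stood 129 and 66 bases before the start, and in the Fosb window 60 bases before it. The Fosb window also held the EGR sequence, 50 bases before its start, so that one AP-1 gene of the set carries a sequence that the EGR members are known to bind. Of 32851 RefSeq windows of the same length, 17.8% held the CRE core and 2.57% the EGR sequence. A window was examined for 9 members, all but Egr1. Of these, 6 held the core, namely Fos, Fosb, Junb, Egr2, Dusp1 and Btg2, while Fosb and Zfp36 held the EGR sequence. The AP-1 sequence TGANTCA was in 0 of these 9 windows, against 6.75% of all windows, which says only that these letters are not there. A member with several starts counted if any of its windows held the letters, which gives it more chances than a single window. Binding was not measured in these samples.

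Among the Jun genes, Jun moved most and Junb and Jund least. Jun signals were 9.01, 9.43 and 9.25 on the sorted CPC arrays, 8.21, 8.31 and 8.09 on the cardiac arrays, 7.69, 8.15 and 8.29 on the spontaneous arrays, and 8.79, 9.13 and 8.55 at day 0. Every sorted array was again above every unsorted day 4 array, and the sorted mean of 9.23 ± 0.21 also lay above the day 0 mean of 8.82 ± 0.29 (SD, n = 3 each), with overlap at day 0 replicate 2. Junb, whose product is a weaker activator than Jun, had 7.03, 7.10 and 7.83 on the sorted CPC arrays, 7.02, 6.87 and 7.05 on the cardiac arrays, 6.89, 7.04 and 6.92 on the spontaneous arrays, and 7.38, 7.20 and 7.52 at day 0. Sorted replicate 3 stood well above the unsorted arrays, replicate 2 just above them and replicate 1 among them. Jund, the Jun gene that most cells express without a stimulus, had 8.80, 9.61 and 9.72 on the sorted CPC arrays, 9.35, 8.87 and 9.20 on the cardiac arrays, 8.78, 8.61 and 8.60 on the spontaneous arrays, and 9.28, 9.51 and 9.47 at day 0. Sorted replicate 1 was the lowest of its group and lay below all cardiac arrays.

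Both EGR genes, which encode zinc finger factors induced by ERK signalling, separated the sorted from the unsorted day 4 arrays without overlap. Egr1 signals were 8.09, 8.38 and 8.47 on the sorted CPC arrays, 6.54, 7.27 and 6.85 on the cardiac arrays, 6.73, 6.99 and 7.0 on the spontaneous arrays, and 8.83, 8.14 and 8.30 at day 0. The sorted values lay within or next to the day 0 range. Egr2 had 6.41, 6.24 and 6.46 on the sorted CPC arrays, 5.69, 5.80 and 5.95 on the cardiac arrays, 5.74, 5.85 and 6.03 on the spontaneous arrays, and 6.76, 6.74 and 6.61 at day 0. Its sorted arrays were above all unsorted day 4 arrays and below all day 0 arrays. Egr2 signals were low, around the array medians of 6.09 to 6.26, and no detection level is given.

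The Egr2 promoter is shown because it combines a CArG box, the sequence SRF is known to bind, with 2 CRE cores. The window is chr10:67537619-67537868 on the plus strand (GRCm38.p6), the one with most matches among several RefSeq starts of the gene, and capitals mark the CRE cores and the CArG box.
Egr2: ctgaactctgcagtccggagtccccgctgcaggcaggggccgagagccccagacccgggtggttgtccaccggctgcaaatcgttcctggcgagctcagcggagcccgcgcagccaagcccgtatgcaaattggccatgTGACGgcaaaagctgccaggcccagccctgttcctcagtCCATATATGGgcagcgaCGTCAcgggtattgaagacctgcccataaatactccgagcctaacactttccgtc

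Its CArG box stood 72 bases before the start and its CRE cores 111 and 55 bases before it, the nearer core on the other strand. A CArG box was found in 1.47% of all windows, and among the 9 members examined in Egr2 and Zfp36. Egr1 had no window examined, and bases further than 250 before a start were not searched. A member not named here may therefore hold a CArG box elsewhere.

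Genes for the feedback products varied within the sorted group, with SDs of 0.83 for Dusp1, 0.81 for Zfp36 and 0.53 for Btg2, beside 0.75 for Fosb (n = 3). Dusp1, a phosphatase that inactivates MAP kinases, had 9.41, 9.65 and 10.95 on the sorted CPC arrays, 9.29, 8.80 and 8.72 on the cardiac arrays, 8.49, 8.75 and 8.96 on the spontaneous arrays, and 10.25, 10.30 and 9.75 at day 0. Sorted replicate 3 was the highest of all 12 arrays, and sorted replicate 1 exceeded the highest cardiac array only narrowly. Zfp36, which encodes tristetraprolin, a protein that speeds the decay of AU-rich mRNAs, had 7.50, 8.15 and 9.12 on the sorted CPC arrays, 7.55, 7.52 and 7.78 on the cardiac arrays, 6.97, 6.97 and 7.39 on the spontaneous arrays, and 8.14, 7.92 and 8.24 at day 0. Btg2, an antiproliferative cofactor of mRNA deadenylation, had 8.36, 8.33 and 9.26 on the sorted CPC arrays, 8.59, 8.23 and 8.43 on the cardiac arrays, 8.06, 8.0 and 8.26 on the spontaneous arrays, and 8.34, 7.79 and 8.30 at day 0. For Zfp36 and Btg2 the sorted range overlapped the cardiac range and lay just above the spontaneous range. Over the 10 genes the highest sorted array was replicate 3 for 7 and replicate 2 for Fos, Fosb and Jun, and replicate 1, the sorted library of high Kdr, for 0. The shares of all genes with these orders were not counted, so the counts describe these arrays and are no result about the members.

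The Dusp1 promoter is shown because it holds a full CRE, present in 1.55% of all windows and, among the 9 members examined, in Dusp1 and Btg2. The window is chr17:26508473-26508722 on the minus strand (GRCm38.p6), with the CRE and a further CRE core in capitals.
Dusp1: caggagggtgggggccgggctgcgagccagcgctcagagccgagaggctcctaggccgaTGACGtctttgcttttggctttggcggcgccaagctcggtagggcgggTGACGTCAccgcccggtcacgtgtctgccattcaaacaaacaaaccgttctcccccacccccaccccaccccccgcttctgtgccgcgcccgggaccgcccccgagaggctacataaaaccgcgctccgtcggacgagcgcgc

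Its full CRE stood 143 bases before the start and the separate core 191 bases before it. A match describes the sequence and is no evidence of a working site.

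The sorted and the cardiac group were compared first, since the sort is meant to draw progenitors out of cultures differentiating toward heart. On average Fos was 8.52 ± 0.28 in sorted CPC and 6.95 ± 0.09 in the cardiac group (SD, n = 3 each), a difference of 1.56 (SE 0.21), or 2.96-fold. Fosb differed by 1.5 (SE 0.28), Egr1 by 1.43 (SE 0.21), Dusp1 by 1.07 (SE 0.32) and Jun by 1.03 (SE 0.19), all with the sorted mean higher. None of these differences passed limma's test, with adjusted p of 0.117 for Fos, 0.134 for Egr1, 0.253 for Fosb, 0.253 for Jun and 0.265 for Dusp1. The remaining differences were 0.64 for Zfp36, 0.56 for Egr2, 0.34 for Junb, 0.24 for Jund and 0.24 for Btg2, with adjusted p of 0.261 or more.

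So 0 of 10 members were called higher in the sorted than in the cardiac group, as were 0 of 19938 genes (0%). At an unadjusted p under 0.05 limma gave 6 of the 10 members higher and 0 lower, against 10.1% of all genes higher, 2007 in number, and 1128 lower. Ranked by that p over all genes, Fos was number 1, Egr1 2, Jun 7, Fosb 10, Egr2 35 and Dusp1 425. All sorted arrays exceeded all cardiac arrays in 6 of the 10 members, against 7.79% of all genes. The median difference was 0.83 over the members and 0.03 over all genes. The members were chosen with such results known, so these counts describe them and are no independent evidence.

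**Figure D2:**
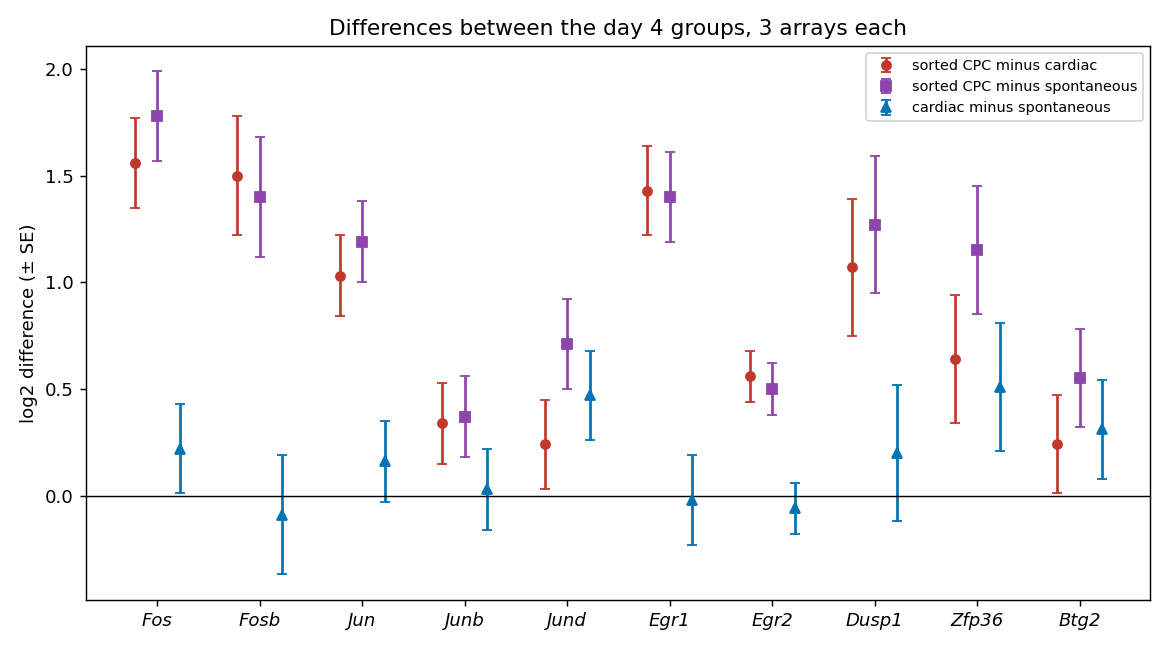
Difference in log2 signal between day 4 groups (y axis) for each gene (x axis), as limma estimates with SE, 3 arrays per group. Differences of sorted CPC from either unsorted group lie above 0 for all 10 genes, while those of cardiac from spontaneous lie between -0.09 and 0.51.

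Without the libraries labelled sorted CPC replicates 2 and 3, a single sorted array remained, which the fit assumes to vary like the other groups. Fosb then differed from the cardiac group by 1.53 with an adjusted p of 0.0282 and was called, as were 0.0201% of genes in that direction. Fos differed by 1.35 (adjusted p 0.0572), Egr1 by 1.20 (0.0788), Egr2 by 0.59 (0.0996) and Jun by 0.81 (0.123). Dusp1 came to 0.47, Junb to 0.05, Zfp36 to -0.12, Btg2 to -0.05 and Jund to -0.34, none of them called. Leaving out cardiac replicate 1 as well gave 1.52 for Fosb (adjusted p 0.0229), the 1 member called beside 0.0451% of genes, and 1.31 for Fos, 1.03 for Egr1 and 0.65 for Dusp1. Between the sorted library of high Kdr and the cardiac group, Fos, Fosb, Egr1 and Jun thus differed by at least 0.81, and Dusp1, Zfp36, Jund and Btg2 by less.

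Against spontaneous cells, Fos was higher in the sorted group, with 8.52 ± 0.28 in sorted CPC and 6.73 ± 0.33 in spontaneous cells (SD, n = 3 each). The difference was 1.78 (SE 0.21), 3.44-fold, with limma's adjusted p of 0.028. Fos was the 1 member called higher, and also the 1 gene of 19938 (0.00502%). Its call was lost without sorted replicates 2 and 3, where it differed by 1.57 (adjusted p 0.0828). It was lost likewise without sorted replicate 1 (1.89, adjusted p 0.0572), without sorted replicate 2 (1.62, 0.0871) and without spontaneous replicate 3 (1.82, 0.203). The size of the difference therefore held while its side of the threshold did not.

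Among the uncalled members, Fosb differed from spontaneous cells by 1.40, Egr1 by 1.40, Dusp1 by 1.27, Jun by 1.19, Zfp36 by 1.15 and Jund by 0.71, with the sorted mean higher. Their adjusted p ran from 0.093 for Egr1 to 0.319 for Jund. Btg2 differed by 0.55, Egr2 by 0.50 and Junb by 0.37, also uncalled. Unadjusted p under 0.05 was reached by 9 of the 10, all higher, against 5.92% of all genes. Without sorted replicates 2 and 3, Fosb differed from spontaneous cells by 1.44 (adjusted p 0.0608), Egr1 by 1.18, Jun by 0.97 and Egr2 by 0.54. The differences of Dusp1 (0.67), Zfp36 (0.39), Btg2 (0.26), Jund (0.14) and Junb (0.08) were smaller there, and 0 members were called. With all arrays, sorted arrays lay wholly above spontaneous arrays in those 9, against 9.44% of all genes, and Junb was the exception. The median was 1.17 over the members and 0.03 over all genes.

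**Figure D3:**
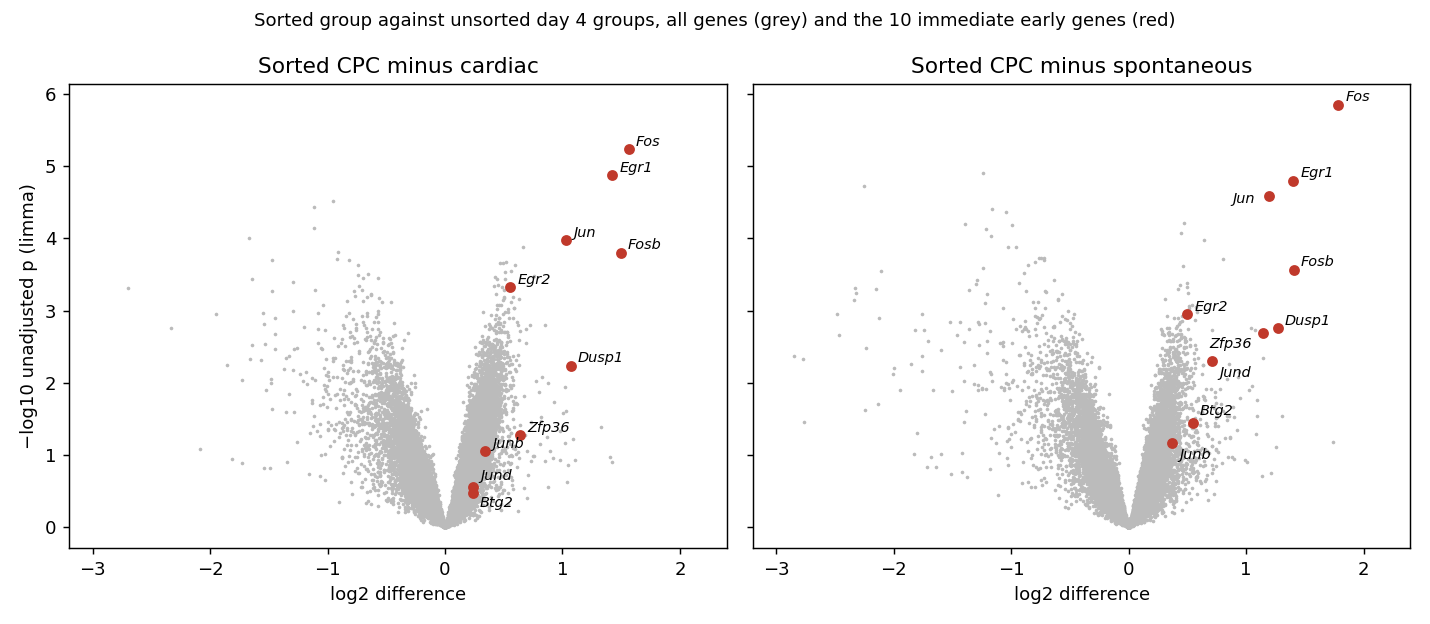
Unadjusted limma p on a -log10 scale (y axis) against the log2 difference (x axis) of all 19938 genes (grey) and the 10 immediate early genes (red), for sorted CPC minus cardiac (left) and sorted CPC minus spontaneous (right). Fos has the smallest p in both panels, and all 10 members lie to the right of 0.

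Cardiac and spontaneous cells, the unsorted pair, showed no called difference in the members. Fos averaged 6.95 ± 0.09 in cardiac and 6.73 ± 0.33 in spontaneous cells, and Egr1 6.89 ± 0.36 in cardiac and 6.91 ± 0.15 in spontaneous cells (SD, n = 3 each). Differences ran from -0.09 for Fosb to 0.51 for Zfp36 and 0.47 for Jund, all with an adjusted p of 0.999 in limma. The count of members called higher was 0, as was that of all genes (0%). At an unadjusted p under 0.05 limma gave 1 of the 10 members higher, against 2.09% of all genes, and 743 genes in either direction. Cardiac arrays lay wholly above spontaneous arrays in 2 members, Jund and Zfp36, against 5.23% of all genes. A p that misses the threshold does not show that the unsorted groups were alike.

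The comparisons with undifferentiated cells all used the same 3 day 0 arrays, so their values are set side by side and not read as separate support. Fos fell in both unsorted groups, with means of 6.95 ± 0.09 in cardiac and 6.73 ± 0.33 in spontaneous cells, against 9.10 ± 0.37 at day 0 (SD, n = 3 each). The change was -2.14 in cardiac cells (SE 0.21, adjusted p 0.000431) and -2.36 in spontaneous cells (SE 0.21, adjusted p 0.000428), or 4.42-fold and 5.15-fold lower. In sorted CPC the difference from day 0 was -0.58 (SE 0.21, adjusted p 0.152), which was not called.

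Fosb fell in all 3 day 4 groups. Its mean was 7.87 ± 0.75 in sorted CPC, 6.37 ± 0.12 in cardiac and 6.46 ± 0.01 in spontaneous cells, against 9.18 ± 0.34 at day 0 (SD, n = 3 each). The change was -1.31 in sorted CPC (SE 0.28, adjusted p 0.0183), -2.81 in cardiac (adjusted p 0.000468) and -2.72 in spontaneous cells (adjusted p 0.000431). Without sorted replicates 2 and 3, which left a single sorted array, the sorted change was -1.27. Without sorted replicate 3 it was -0.93 (adjusted p 0.0224), under the minimum difference, and the call was also lost without day 0 replicate 1 (adjusted p 0.0612) or day 0 replicate 2 (0.0864).

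Egr1 fell by 1.54 in cardiac (SE 0.21, adjusted p 0.00139) and by 1.51 in spontaneous cells (SE 0.21, adjusted p 0.00127). It averaged 8.31 ± 0.20 in sorted CPC and 8.42 ± 0.36 at day 0 (SD, n = 3 each), a difference of -0.11 with an adjusted p of 0.839. Dusp1 fell by 1.37 in spontaneous cells (SE 0.32, adjusted p 0.0187), a call that was lost when either day 0 replicate 1 or 2 or spontaneous replicate 1 or 2 was left out (adjusted p 0.0676 to 0.0775). In cardiac cells Dusp1 stood at -1.17 (adjusted p 0.051), and without cardiac replicate 1 at -1.34 (adjusted p 0.0375), which was called. Between sorted CPC and day 0 Dusp1 differed by -0.10 (SE 0.32, adjusted p 0.913).

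How near the sorted cells lay to day 0 changed for some members, such as Dusp1, Jund and Zfp36, without the sorted libraries of low Kdr. Fosb changed little, from -1.31 with all arrays to -1.27. Without sorted replicates 2 and 3, Fos differed from day 0 by -0.79, Dusp1 by -0.69, Jund by -0.62 and Zfp36 by -0.60, against -0.58, -0.10, -0.04 and 0.16 with all arrays. Junb stood at -0.34, Egr1 at -0.33 and Egr2 at -0.29 in that fit, and Jun at 0.19 and Btg2 at 0.22. Apart from Fosb, none of these differences was called. Without sorted replicate 2 alone Dusp1 stood at 0.08, and without sorted replicate 3 alone Zfp36 stood at -0.27. Sorted replicate 1, the sorted library of high Kdr, lay below every day 0 array in 8 of the 10 members, all but Jun and Btg2. The share of all genes in that order was not counted, so the 8 describe this array and are no result about the members.

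A further 3 members had adjusted p under 0.05 against day 0 but a difference under 1. Egr2 stood at -0.88 in cardiac (adjusted p 0.00136) and -0.83 in spontaneous cells (adjusted p 0.00156), and at -0.33 in sorted CPC (adjusted p 0.149). Jun stood at -0.78 (adjusted p 0.0205) and Jund at -0.76 (adjusted p 0.0396) in spontaneous cells. Junb, Zfp36 and Btg2 had no adjusted p under 0.05 in any day 4 group, the lowest being 0.0549 for Zfp36 in spontaneous cells at -0.99.

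**Figure D4:**
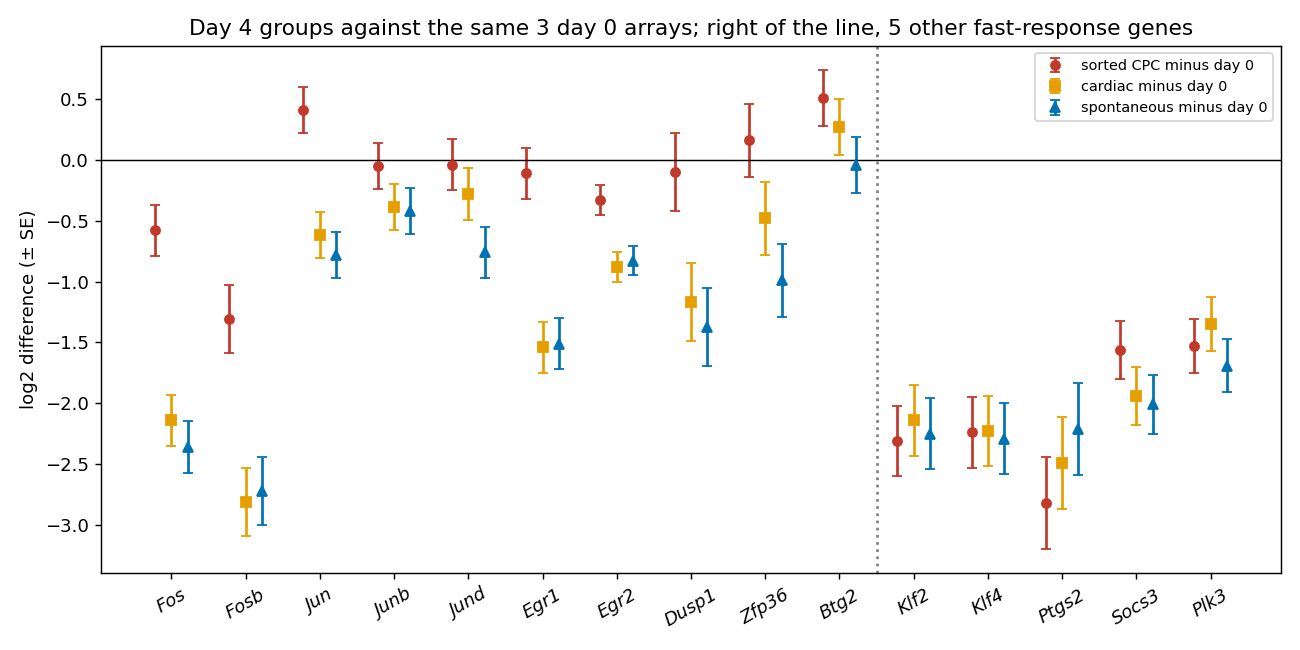
Difference in log2 signal of each day 4 group from the same 3 day 0 arrays (y axis, limma estimate with SE) for the 10 immediate early genes and, right of the dotted line, for Klf2, Klf4, Ptgs2, Socs3 and Plk3 (x axis). Fos and Egr1 lie at -0.58 and -0.11 in sorted CPC but between -1.51 and -2.36 in the unsorted groups. The 5 genes on the right lie between -1.35 and -2.82 in all 3 day 4 groups. They were picked because they were called lower in sorted CPC than at day 0. Their contrast with Fos and Egr1 is therefore no finding.

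By counts, 1 of 10 members was called lower in sorted CPC than at day 0, against 1.32% of all genes. In cardiac cells it was 3 of 10, against 0.943%, and in spontaneous cells 4 of 10, against 1.57%. None was called higher in any of these comparisons. All day 4 arrays lay below all day 0 arrays in 2 members for sorted CPC (11.3% of all genes), in 8 for cardiac (16.2%) and in 9 for spontaneous cells (21.6%). The median difference of the members was -0.07 in sorted CPC, -0.75 in cardiac and -0.91 in spontaneous cells, with all-gene medians of 0.03, -0.05 and -0.03.

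A simple description of the pattern is the order of the arrays. All 3 sorted arrays exceeded all 6 unsorted day 4 arrays in Fos, Fosb, Jun, Egr1, Egr2 and Dusp1, 6 of the 10 members, against 785 genes or 3.94% of the whole. All 3 day 0 arrays exceeded all 6 unsorted day 4 arrays in 8 members, every one except Jund and Btg2, against 11.1% of genes. Both orders held at once in the same 6 members, against 187 genes or 0.938%. As a group the sorted arrays overlapped day 0 in 8 members and lay wholly below it in Fosb and Egr2 (11.3% of all genes). Replicate 1 alone lay below day 0 in 8, for which the share of all genes was not counted.

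The order of group means was day 0, then sorted CPC, then the unsorted groups for Fos, Fosb, Egr1, Egr2, Dusp1, Junb and Jund. For Jun, Zfp36 and Btg2 the sorted mean was the highest. For Btg2 cardiac cells came next, ahead of day 0 and spontaneous cells, and no pair of groups differed past the threshold. In the other 9 members the top neighbours, sorted CPC and day 0, differed past the threshold in Fosb alone, and the bottom neighbours, cardiac and spontaneous cells, in 0.

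Closely related genes are given by counts, which between day 4 groups are read against a background of 0 or 1 called gene in the whole table. Of 10 other AP-1 family genes, 0 were called in any of the 6 comparisons, and their median difference was 0.24 between sorted CPC and cardiac cells and 0.20 between sorted CPC and spontaneous cells. Atf3, a stress-induced AP-1 partner, averaged 8.10 ± 1.03 in sorted CPC and 7.66 ± 0.26 in cardiac cells (SD, n = 3 each), a difference of 0.44 with an adjusted p of 0.555. From spontaneous cells the sorted mean of Atf3 differed by 0.82 and from day 0 by -0.20, neither called. Mafg differed by 0.08 between sorted CPC and cardiac cells. Among the 4 other EGR and NAB genes, where NAB proteins are corepressors of EGR factors, 0 were called and Egr3 differed by 0.14 and Nab2 by 0.10 between sorted CPC and cardiac cells.

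Wider lists of fast-response genes held no called gene between day 4 groups, but several that were called lower than at day 0. Of 15 other immediate early transcription factors, 0 were called between sorted CPC and either unsorted group. Against day 0, 2 fell in sorted CPC and 3 in cardiac cells, while in spontaneous cells 3 fell and 2 rose. Of all genes, 1.32%, 0.943% and 1.57% were called lower in the same order of groups. In spontaneous cells 397 of 19938 genes were called higher. Klf4, a zinc finger factor that is both growth factor responsive and part of the pluripotency network, had 7.71, 7.76 and 7.52 on the sorted CPC arrays, 8.35, 6.96 and 7.72 on the cardiac arrays, 7.63, 7.56 and 7.66 on the spontaneous arrays, and 9.77, 10.40 and 9.55 at day 0. All day 4 arrays lay below all day 0 arrays, sorted ones included. Klf4 fell by 2.24 in sorted CPC (adjusted p 0.00106), by 2.23 in cardiac (adjusted p 0.00108) and by 2.29 in spontaneous cells (adjusted p 0.00074), and the changes of Klf2, its relative, were -2.31, -2.14 and -2.25, all called. Klf2 also belongs to the pluripotent marker list used here.

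Of 22 other immediate early signalling and secreted genes, 0 were called between sorted CPC and either unsorted group, with medians of 0.01 against cardiac and 0.16 against spontaneous cells. Mean signals of this list were 7.77, 8.18 and 8.69 on sorted replicates 1, 2 and 3. They were 8.15 to 8.25 on the cardiac arrays, 7.87 to 8.12 on the spontaneous arrays and 8.72 to 8.88 at day 0. Sorted replicate 1, the sorted library of high Kdr, thus lay below every other array, which the group medians do not show. Against day 0, 3 of the 22 genes fell in sorted CPC, 5 in cardiac and 7 in spontaneous cells, and 0 rose in limma's test. The shares of all genes called lower there were 1.32%, 0.943% and 1.57%. Ptgs2, the inducible cyclooxygenase, changed by -2.82 in sorted CPC (adjusted p 0.00145), -2.49 in cardiac and -2.21 in spontaneous cells, all called. Socs3, which restrains JAK and STAT signalling, changed by -1.56 in sorted CPC, -1.94 in cardiac and -2.01 in spontaneous cells, all called. Plk3, a stress-responsive kinase, changed by -1.53, -1.35 and -1.69 in the same order of groups, also called. These 5 genes are named because they were called lower in sorted CPC than at day 0, so that direction is no finding about their lists. Between sorted CPC and cardiac cells they differed by -0.18 for Klf2, -0.01 for Klf4, -0.33 for Ptgs2, 0.38 for Socs3 and -0.19 for Plk3, none called. Ccn1, a secreted matrix protein gene named after its values were seen, did not share this pattern, with 10.49 ± 1.49 in sorted CPC, 9.40 ± 0.51 in cardiac and 9.19 ± 0.23 in spontaneous cells, against 10.51 ± 0.36 at day 0 (SD, n = 3 each), and no called difference. Nr4a1, an orphan nuclear receptor, fell by 1.10 in cardiac (adjusted p 0.0185) and by 1.11 in spontaneous cells (adjusted p 0.0124), and stood at -0.85 in sorted CPC (adjusted p 0.0626).

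Genes for regulators above and beside the members had 1 called difference in all. Of 13 measured genes for SRF, its cofactors and the MAP kinases, 0 were called in any comparison, and their median difference was -0.11 between sorted CPC and cardiac cells. Of 7 other members of the tristetraprolin and BTG families, 0 were called. Of 11 other MAP kinase phosphatases, Dusp4 alone was called, with a rise of 1.02 in spontaneous cells against day 0 (adjusted p 0.00842). Dusp6, the phosphatase known as an ERK feedback target, averaged 10.23 ± 0.15 in sorted CPC and 9.67 ± 0.46 in cardiac cells (SD, n = 3 each), a difference of 0.56 with an adjusted p of 0.278. From spontaneous cells the sorted mean of Dusp6 differed by 0.53 and from day 0 by 0.72, neither called.

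Heat shock genes, which are often induced with immediate early genes when tissue is dissociated, were measured beside them. Of 10 measured, 0 were called in any comparison, and their mean signal ran from 9.89 to 10.13 on the sorted CPC arrays, 10.06 to 10.18 on the cardiac arrays, 10.10 to 10.18 on the spontaneous arrays and 9.97 to 10.14 at day 0. The ranges of the sorted arrays and each other group overlapped. Hspa8 differed by 0.03 and Hsp90aa1 by -0.02 between sorted CPC and cardiac cells. These were named as the uncalled genes of highest mean signal in the list (12.73 and 12.6). Only 10 of the 12 listed genes were measured, and the mean pools genes of high and low signal. Stress from dissociation was not tested.

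Markers of other cells moved with the groups. Of 10 pluripotent markers, 6 fell in sorted CPC, 6 in cardiac and 7 in spontaneous cells against day 0, and 0 were called between day 4 groups. Mean signals of this list were 7.81 to 9.89 on the sorted arrays, 8.84 to 9.74 on the cardiac arrays, 8.79 to 9.35 on the spontaneous arrays and 10.75 to 11 at day 0. Within the sorted group, replicate 1 was lowest both in this list (7.81, against 9.89 and 9.26) and in the median of the 10 members, each centred on its own mean (0.13, against 0.42 and 0.68). The part of pluripotent cells in the members' levels was not tested. Fibroblast and feeder cell markers, a source of RNA in iPSC cultures grown on feeders, had mean signals of 6.53 to 6.82 on the sorted arrays, 6.56 to 6.74 on the cardiac arrays, 6.79 to 6.95 on the spontaneous arrays and 6.97 to 7.44 at day 0. Dcn, which encodes the matrix protein decorin, fell in sorted CPC by 2.17 (adjusted p 0.00143), and 1 of these 12 genes was called in sorted CPC and 2 in each unsorted group. Their part in the higher day 0 level of Fos, Fosb and Egr1 was not tested.

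Visceral endoderm markers, of which 6 of 8 rose in cardiac cells and 1 in spontaneous cells against day 0, had mean signals of 6.61 to 7.71 on the sorted arrays, 7.95 to 9.77 on the cardiac arrays, 6.62 to 7.68 on the spontaneous arrays and 6.29 to 6.38 at day 0. They were thus lower on all sorted than on all cardiac arrays and overlapped between sorted and spontaneous cells, and their part in the differences of the members was not tested. Of 10 endothelial and blood markers 1 fell in each day 4 group, and 0 were called between day 4 groups. The gene was Pecam1, with changes from day 0 of -2.37 in sorted CPC, -1.98 in cardiac and -2.57 in spontaneous cells.

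**Figure D5:**
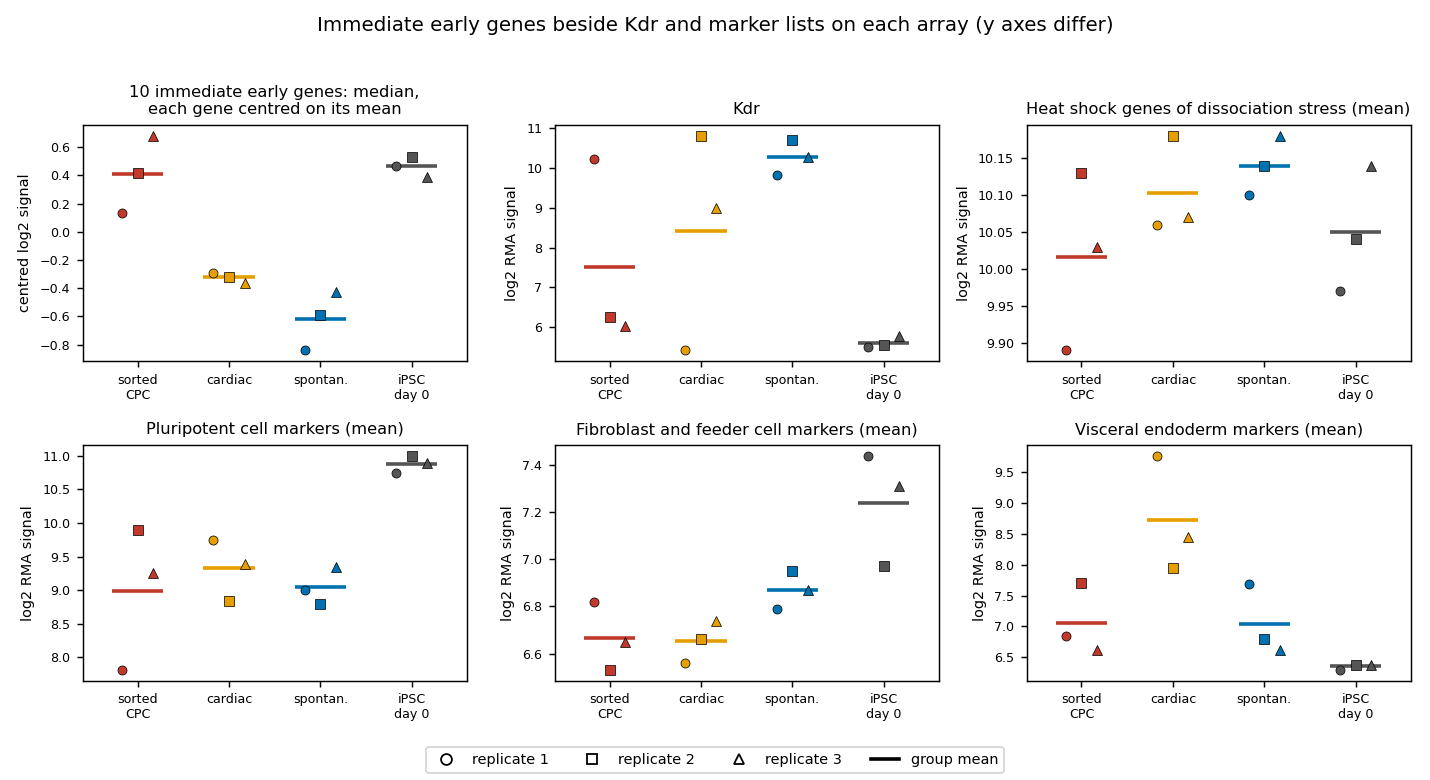
Median of the 10 immediate early genes, each centred on its own mean (upper left), Kdr (upper middle) and the mean log2 RMA signal of 4 marker lists on each array (y axes, which differ), by group (x axes); bars are group means. The median of the immediate early genes separates sorted CPC and day 0 arrays from unsorted day 4 arrays. Taken singly, 6 of the 10 members do so, against 0.938% of all genes. The members were chosen with such results known, so this separation is no independent evidence. The heat shock list does not separate them, with all array means between 9.89 and 10.18, and stress from dissociation was not tested.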

How the data were processed

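Total RNA of 12 mouse cell samples was hybridised to 1-colour Affymetrix gene arrays. Per the submitters' processing notes, the authors summarised probes with RMA in Affymetrix Expression Console 1.3.1, which yields log2 signals. The deposited table names no log base, and base 2 was inferred from RMA and from the range of 1.8747 to 13.8686. RMA equalises the arrays' distributions, so a shift of all genes would not be seen. The table gives no detection level, and precision is limited by how many arrays there are.

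Of 35557 probe sets, 21789 had 1 gene symbol and 1621 several. Where a gene had several (999 genes), the probe set of highest mean stood for it, giving 19938 genes. One mean per group was fitted to all 12 arrays with limma 3.58.1 under R 4.3.3, with an intensity trend (8 residual df, 5.01 prior df). Two-sided p-values were Benjamini-Hochberg adjusted over all genes in each of 6 comparisons. Calls needed an adjusted p under 0.05 together with an absolute log2 difference of at least 1. The model was tested on simulated data.

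Members and the 13 gene lists were chosen with earlier results of these data known. Besides the members, Kdr and Pdgfra, the text names from each list called genes (up to 4 of largest difference) and up to 2 uncalled genes of highest mean per comparison, and the 6 genes most like the members. Replicate numbers were not treated as pairs in the main fit: 6 of 18 same-numbered pairs had correlated deviations over 0.1 (range -0.382 to 0.307). Differently numbered pairs were not correlated for comparison, so these values cannot show whether same-numbered samples shared a culture or batch. Promoter windows came from RefSeq (GRCm38.p6). Alternatives covered scaling, array weights, variance model, dim genes, probe sets, the arrays fitted, the minimum difference, the replicate number as a block, and left-out arrays.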

Additional observations from a re-analysis of the deposited data

Results flagged for a closer look

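The change of Fos from day 0 differed between the sorted CPC and the spontaneous group by 1.78 (log2, SE 0.21, limma adjusted p 0.028). Day 0 cancels here, so this is the comparison of sorted CPC with spontaneous cells given above and no further result. Its call was lost with array weights (1.61, adjusted p 0.0618) and with only the 6 arrays compared (adjusted p 0.136). Fos was lower than at day 0 by the group mean in both, and all 3 sorted arrays were above all 3 spontaneous arrays. Without sorted CPC replicates 2 and 3 the difference was 1.57 (adjusted p 0.0828).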

How the results depend on the processing

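The 9 called differences of members kept their call in 144 of 158 alternatives and their sign in all of them. Of 932 alternatives for the 51 uncalled differences, 33 turned the sign and 13 gave a call. Other scalings moved the median of all genes by at most 0.049 (log2). The small number of arrays per group and the low Kdr of 3 libraries limit every comparison with sorted CPC. The cause of the changes below was not tested, beyond the fewer samples or genes where arrays were left out or no minimum was set.

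Members called numbered, for sorted CPC against cardiac cells, 0 to 1 with any array left out. For sorted CPC against spontaneous cells they numbered 0 with array weights, 0 with only the 6 arrays compared and 0 without sorted replicates 2 and 3 (0 to 2 with any array left out). Against day 0, sorted CPC had 0 with only the 6 arrays compared (0 to 1 with any array left out), and spontaneous cells had 7 with no minimum difference. All genes called came, for sorted CPC against cardiac cells, to 98 without sorted replicates 2 and 3 and 115 without the 3 libraries, and for sorted CPC against spontaneous cells to 0, 0 and 5 in the settings above and 0 to 18 with any array left out. Cardiac against spontaneous cells gave 3 with array weights. Against day 0 the counts with no minimum difference were 1019 for sorted CPC, 1231 for cardiac and 1943 for spontaneous cells, against 420, 439 and 711, and 824 for sorted CPC without replicates 2 and 3. They were 284 for cardiac cells without day 0 replicate 1 and 430 for spontaneous cells without their replicate 2.

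Among uncalled differences, Jund between sorted CPC and cardiac cells was -0.04 with array weights, -0.34 without sorted replicates 2 and 3 and -0.23 without the 3 libraries. Zfp36 was -0.12 and Btg2 -0.05 in the first of these omissions, and Zfp36 -0.15 in the other. Between cardiac and spontaneous cells Egr1 was 0.15 and Egr2 0.01 without the low Kdr cardiac library. Against day 0, Zfp36 in sorted CPC was -0.06 with array weights and -0.60 without replicates 2 and 3, and Btg2 in spontaneous cells 0.04 with array weights. With any 1 array left out, Btg2 ran from -0.07 to 0.39 between sorted CPC and cardiac cells. Between cardiac and spontaneous cells Jun ran from -0.01 to 0.29, Junb from -0.01 to 0.08, Egr1 from -0.21 to 0.15 and Egr2 from -0.13 to 0.02. In sorted CPC against day 0, Egr1 ran from -0.25 to 0.09, Jund from -0.22 to 0.25, Dusp1 from -0.57 to 0.20, Junb from -0.30 to 0.10 and Zfp36 from -0.27 to 0.53. In spontaneous cells against day 0, Btg2 ran from -0.22 to 0.06.

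The fit with the replicate number as a block (replicate block) called 1 member between sorted CPC and spontaneous cells, with Fos at 1.78 (adjusted p 0.0476), and changed no other call of a member.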

Other observations

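The 6 genes outside the set whose centred values over the 12 arrays lay nearest to the median profile of the members were Fam13c, Cacna1a, Arl15, Syt9, Pramel7 and Atl1. Their root mean square distance ran from 0.223 for Fam13c to 0.279 for Atl1 (log2), beside 0.224 for Jun. Fam13c had 6.60, 6.45 and 7.30 on the sorted CPC arrays, 6.45, 6.32 and 6.41 on the cardiac arrays, 6.07, 5.98 and 6.40 on the spontaneous arrays, and 7.10, 6.92 and 7.02 at day 0. Sorted replicate 3 was the highest day 4 array. Between sorted CPC and cardiac cells none of the 6 was called, with differences of 0.26 to 0.39. The members themselves ranked from place 2 for Jun to place 19195 of all genes for Fosb, whose wider spread takes it away from the median. Arrays share their normalization, and the distances carry no test.

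Myc rose by 1.85 in spontaneous cells against day 0 (limma adjusted p 0.0458).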
